A study of Homo sapiens with 4 samples.

Results

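The genes examined here encode 6 proteins that bind double-stranded RNA and 1 that works in complexes with such proteins. EIF2AK2 (the kinase PKR), ADAR and ADARB1 (adenosine deaminases of RNA), DHX9 (RNA helicase A), ILF2 (NF45), and STAU1 and STAU2 (Staufen proteins) make up the set of 7. They were taken by symbol, matched to Ensembl gene identifiers of GENCODE 29, out of the 58735 genes counted. The rule itself uses no measured value, but the 7 genes were chosen with earlier results of these data known. ILF2 is the one without a double-stranded RNA binding domain of its own. The 2 shRALY libraries came from A549 cells infected with a lentivirus that carries a hairpin against RALY. The 2 shControl libraries came from the same line infected with lentivirus carrying a control hairpin, and are labelled WT. All 4 were taken at a time labelled day 2, so lentivirus infection is shared by both groups. A549 is a human lung adenocarcinoma line, RALY belongs to the hnRNP proteins, which bind RNA, and polyadenylated RNA was sequenced. The series asks how loss of RALY alters gene expression, and the labels do not say how many hairpins were used or whether replicates were separate cultures. The p-values therefore measure the spread between these libraries, which may be technical.

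Long double-stranded RNA is scarce in healthy cells and is read as a sign of viral infection. PKR dimerises on it and phosphorylates the alpha subunit of eIF2, which lowers translation, whereas ADAR converts adenosine to inosine in it and thereby weakens the duplex. DHX9 unwinds duplexes, and the Staufen proteins carry duplex-bearing mRNAs or send them to decay. EIF2AK2 and the long form of ADAR are textbook interferon-stimulated genes.

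RALY itself had 40.9 and 41.5 CPM (counts scaled to library size by edgeR) in the shRALY libraries, against 123 and 133 CPM in the shControl libraries, a log2 fold change of -1.64 (SE 0.11; Benjamini-Hochberg adjusted p = 5.85e-11 by the edgeR quasi-likelihood test). Total counts were 18632787 and 16823605 in the shRALY libraries and 17587717 and 16745818 in the shControl libraries. Reads of mitochondrial genes took 8.88% and 8.66% of counts in shRALY, against 7.67% and 6.99% in shControl, and the part of this difference in the results was not tested. Epithelial keratin genes were abundant, with KRT8 at 3737 and 3954 CPM in shRALY and 3493 and 3953 CPM in shControl. The epithelial marker EPCAM was scarce, at 3.54 and 2.94 CPM in shRALY and 3.07 and 2.29 CPM in shControl. CDH1 stood at 29.38 and 34.85 CPM in shRALY and 19.6 and 26.89 CPM in shControl. CDH1, KRT7 and KRT19 were called higher in shRALY (edgeR adjusted p = 0.01905, 0.0304 and 1.35e-11). EPCAM, KRT8 and KRT18 were not called (edgeR adjusted p = 0.511, 0.728 and 0.523), with KRT18 at log2 -0.08. The basal marker TP63 was called lower (log2 -1.17, edgeR adjusted p = 0.00726). Markers of alveolar and basal cells were nearly absent. The 6 alveolar markers summed to 4.30 and 3.30 CPM in shRALY and 3.35 and 2.70 CPM in shControl, with NKX2-1, SFTPA1 and SFTPC at 0 in both shRALY libraries. The 3 basal markers summed to 1.41 and 1.96 CPM in shRALY and 3.41 and 3.29 CPM in shControl, mostly TP63, and KRT5 was at 0 in both shRALY libraries, so the label of alveolar basal epithelial cells is not borne out by these defining genes. Summed levels of 6 immune markers were 3.37 and 3.12 CPM in shRALY and 4.08 and 3.52 CPM in shControl, nearly all of it ITGAM, with CD3E and LYZ at 0 in every library. Summed levels of 5 fibroblast markers were 15.1 and 17.6 CPM in shRALY, against 20.8 and 19.6 CPM in shControl. For 3 endothelial markers they were 0.0544 and 0.183 CPM in shRALY, against 0.50 and 0.82 CPM in shControl.

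The genes for PKR and ADAR were higher in the RALY-depleted cells, those for DHX9 and ILF2 were lower, and ADARB1, STAU1 and STAU2 did not pass the test. All 7 were abundant enough to be tested. Of the 7, 2 were higher and 2 lower at an edgeR adjusted p under 0.05, beside 20.6% of all 15912 tested genes called higher and 20.4% called lower. With 7 genes these shares stand close to those of all genes, so the number of calls is not a result about this set. The groups did not overlap for 5 of the 7, beside 69.7% of tested genes. The median log2 fold change of the 7 was -0.15, against -0.01 over all tested genes. All changes are relative to the other RNA of a library, and in bulk RNA a change in the number of cells expressing a gene and a change in RNA per cell cannot be told apart.

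**Figure D1:**
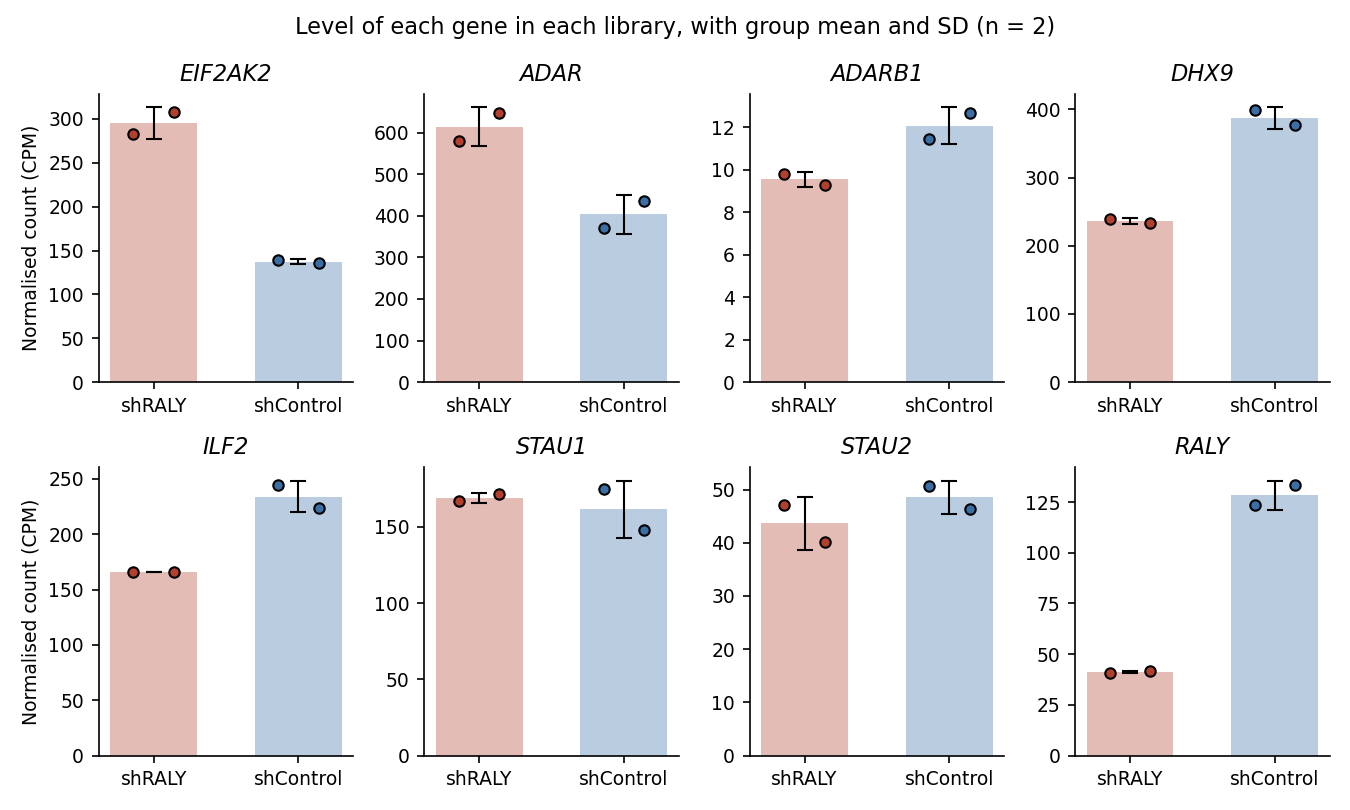
Normalised counts (CPM, linear axes from 0) of the 7 genes and of RALY, shRALY left and shControl right. Points are single libraries, bars are group means and whiskers are the SD (n = 2); the groups are apart for EIF2AK2, ADAR, ADARB1, DHX9, ILF2 and RALY, and overlap for STAU1 and STAU2.

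EIF2AK2 changed most among the 7. This gene lies on the minus strand of chromosome 2 (GRCh38, 37099210 to 37157065; protein coding; ENSG00000055332). In raw counts it had 5190 and 5035 in shRALY, against 2495 and 2306 in shControl. After normalisation it stood at 282 and 308 CPM in shRALY and at 139 and 135 CPM in shControl, or 295 ± 18 CPM against 137 ± 2.77 CPM (SD, n = 2 each). Both shRALY libraries lay far above both shControl libraries, a separation in the upward direction seen in 34.2% of tested genes. EIF2AK2 thus rose 2.15-fold (log2 1.10, SE 0.10, 95% interval 0.89 to 1.32; edgeR adjusted p = 1.22e-08). Among all genes called higher, 29.99% rose by more. Per kilobase of exon its level was 27.4 CPM in shRALY and 12.8 CPM in shControl, and its mean over all libraries was above that of 86.3% of tested genes.

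ADAR, on the minus strand of chromosome 1 (154582057 to 154628013; ENSG00000160710), had raw counts of 10676 and 10583 in shRALY and of 6635 and 7437 in shControl. Its level was 581 and 647 CPM in shRALY, against 371 and 437 CPM in shControl. The groups did not overlap, with means of 614 ± 46.9 CPM in shRALY and 404 ± 46.8 CPM in shControl (SD, n = 2 each). ADAR rose 1.52-fold (log2 0.61, SE 0.11, 95% interval 0.38 to 0.83; edgeR adjusted p = 8.05e-05). Of all genes called higher, 62.6% rose by more than ADAR did. GENCODE 29 lists 23 transcripts of this gene. The counts are per gene, so the long, interferon-inducible form and the short, constitutive form were measured together.

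ADARB1, the second catalytically active deaminase and best known for editing glutamate receptor mRNA in brain, was scarce. It had 180 and 152 raw counts in shRALY and 205 and 216 in shControl. Its level was 9.79 and 9.29 CPM in shRALY, against 11.5 and 12.7 CPM in shControl. Both shRALY values were below both shControl values, a separation found in 35.4% of tested genes, and the difference did not pass the test (log2 -0.34, SE 0.18, 95% interval -0.71 to 0.04; edgeR adjusted p = 0.149). Per kilobase of exon, ADAR exceeded ADARB1 61.5-fold and 72.2-fold in the shRALY libraries and 33.6-fold and 35.7-fold in the shControl libraries. An exact two-sided permutation test of this ratio gave p = 0.333, the smallest value that 2 libraries against 2 can give, also for each of the 8 ratios computed. ADARB2, the brain-restricted family member without known catalytic activity, had 0 counts in every library, which allows up to 0.161 to 0.179 CPM per library (3 counts; counting error only).

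The start regions of the 2 genes that rose are shown because EIF2AK2 carries a known interferon-stimulated response element at its start. Its core was searched as GAAA, any 2 bases and GAAA again, on both strands in RefSeq windows of 300 bases (250 before and 50 after an annotated start, GRCh38.p14). RefSeq windows were found for 6 of the 7 genes. Capitals mark this core in EIF2AK2, and the CCAAT box, searched as CCAAT on both strands, in ADAR.
EIF2AK2, chr2:37156931-37157230, minus strand: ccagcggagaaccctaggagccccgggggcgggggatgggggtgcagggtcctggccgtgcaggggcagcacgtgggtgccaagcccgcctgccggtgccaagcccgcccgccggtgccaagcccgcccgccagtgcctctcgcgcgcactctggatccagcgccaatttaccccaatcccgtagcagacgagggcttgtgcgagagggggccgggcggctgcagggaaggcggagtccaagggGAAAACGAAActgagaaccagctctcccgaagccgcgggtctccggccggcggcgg
ADAR, outer start, chr1:154627948-154628247, minus strand: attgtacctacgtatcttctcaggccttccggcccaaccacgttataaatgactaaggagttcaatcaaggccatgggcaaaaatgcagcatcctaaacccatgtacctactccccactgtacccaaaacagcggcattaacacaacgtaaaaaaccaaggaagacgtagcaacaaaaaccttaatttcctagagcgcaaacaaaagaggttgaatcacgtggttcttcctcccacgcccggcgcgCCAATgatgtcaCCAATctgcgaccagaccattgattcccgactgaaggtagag
ADAR, inner start, chr1:154608748-154609047, minus strand: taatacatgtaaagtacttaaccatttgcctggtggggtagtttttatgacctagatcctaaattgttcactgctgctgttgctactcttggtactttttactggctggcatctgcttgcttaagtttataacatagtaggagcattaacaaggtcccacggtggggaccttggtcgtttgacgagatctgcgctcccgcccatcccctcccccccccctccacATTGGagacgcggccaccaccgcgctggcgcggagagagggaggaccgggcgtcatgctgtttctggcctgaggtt
The response element core read GAAAACGAAA and began at position -6 relative to the EIF2AK2 start. Of 35116 RefSeq windows, 1255 (3.57%) held such a core. None of the 3 ADAR windows held one, nor did those of ADARB1, DHX9, ILF2 or STAU1. A match is a run of letters and not a measured binding site, and its absence concerns these windows alone.

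PKR is one of 4 kinases of the eIF2 alpha subunit, and their levels per length are compared in the plot of stacked kinase levels. The length is that of all annotated exons merged, so shares and ratios between genes are approximate. EIF2AK2 made up 36.4% and 39.3% of the summed kinase level in shRALY, against 21.1% and 20.5% in shControl. EIF2AK1, the heme-regulated kinase, took the largest share in shControl and had 40.97% and 39.1% in shRALY, against 62.3% and 61.4% in shControl. In the 2 shRALY libraries EIF2AK2 stood at 0.89 and 1.00 times the level of EIF2AK1 per length, against 0.34 and 0.33 times in the shControl libraries. EIF2AK3, the ER stress kinase PERK, rose 2.52-fold (61.9 and 61.5 CPM in shRALY, 23.1 and 25.9 CPM in shControl; edgeR adjusted p = 8.94e-09). Per length, EIF2AK2 stood at 2.31 and 2.53 times EIF2AK3 in shRALY, against 3.05 and 2.64 times in shControl. The amino acid sensor EIF2AK4 (GCN2) was lower at log2 -0.38 and EIF2AK1 at log2 -0.39 (edgeR adjusted p = 0.00983 and 0.00421); both were named after their values were seen. Both calls were lost without shRALY replicate 1 (edgeR adjusted p = 0.0941 for EIF2AK4 and 0.11 for EIF2AK1) and without shRALY replicate 2 (0.279 and 0.181).

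**Figure D2:**
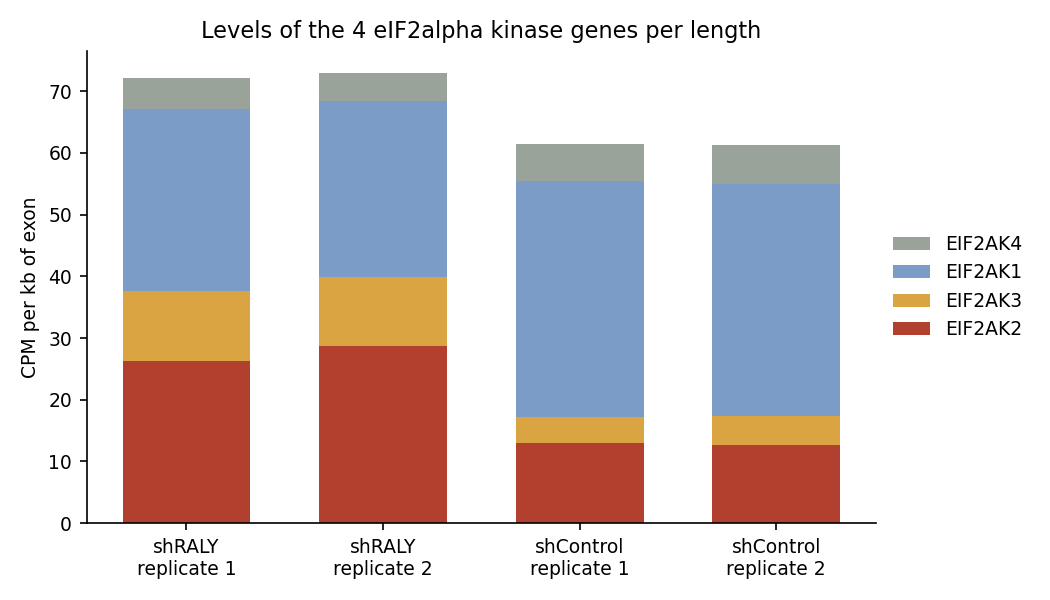
Levels of EIF2AK2, EIF2AK3, EIF2AK1 and EIF2AK4 per library, stacked, in CPM per kilobase of exon; the shRALY libraries are left. The EIF2AK2 part of the stack is 36.4% and 39.3% in shRALY and 21.1% and 20.5% in shControl.

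Of the 14 listed genes of eIF2 and its phosphorylation, 3 were higher, 3 lower and 8 not called, close to the 20.6% higher and 20.4% lower among all tested genes, with a median log2 fold change of 0.03. PPP1R15A, the stress-induced phosphatase subunit GADD34 that removes the phosphate PKR adds, had 159 and 191 CPM in shRALY, against 19.99 and 23.8 CPM in shControl (7.99-fold, SE 0.13 on the log2 scale; edgeR adjusted p = 2.54e-14). DNAJC3, an ER co-chaperone also described as an inhibitor of PKR, had 145 and 156 CPM in shRALY and 50.7 and 48.0 CPM in shControl (log2 1.61; edgeR adjusted p = 6.56e-11). The constitutive phosphatase subunit PPP1R15B, named after its value was seen, was lower at log2 -0.42 (edgeR adjusted p = 0.00367). Its call was lost without shRALY replicate 1 or 2, as were the other lower calls among the 14. glmTreat, which tests against a 1.2-fold change, called 0 of the 14 lower, so PPP1R15B, EIF2AK1 and EIF2AK4 lost their calls there. With GC content and transcript length offsets, 6 of the 14 were called lower. EIF2S1, the substrate subunit itself, had 160 and 160 CPM in shRALY and 165 and 131 CPM in shControl and did not pass (log2 0.11, edgeR adjusted p = 0.464). It did pass without shControl replicate 1 (log2 0.29, edgeR adjusted p = 0.00562), when 5 of the 14 were called higher, and without shControl replicate 2 there were 5 called lower.

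Most other sensors of double-stranded RNA had larger log2 fold changes than EIF2AK2 and ADAR. Of 10 listed sensors and partners of double-stranded and Z-form RNA, 9 were higher and 1 lower (20.6% and 20.4% of all tested genes). The median log2 fold change was 3.89, and those genes were already known to rise from earlier results of these data. In shControl, raw counts were 3 and 6 for OAS2, 4 and 3 for DHX58, and 0 and 1 for ZBP1. These genes passed the filter on low counts only through shRALY, so they could not have been called lower. Their fold changes rest on few shControl counts. IFIH1 (MDA5), the sensor known to respond to duplexes that ADAR has not edited, had 184 and 221 CPM in shRALY and 3.18 and 3.17 CPM in shControl (log2 5.99, SE 0.16; edgeR adjusted p = 3.67e-18). DDX58 (RIG-I) had 319 and 348 CPM in shRALY and 17.0 and 15.6 CPM in shControl (log2 4.35; edgeR adjusted p = 1.83e-17). OAS2, which makes the activator of RNase L, had 105 and 112 CPM in shRALY, against 0.17 and 0.35 CPM in shControl. ZBP1, which shares the Z-RNA binding fold with the long form of ADAR, stood at 2.01 and 1.10 CPM in shRALY and at 0 and 0.06 CPM in shControl. The lower gene was the adaptor MAVS (log2 -0.33, edgeR adjusted p = 0.0217), named after its value was seen. Its call was lost with glmTreat, without shControl replicate 2 and without shRALY replicate 1 or 2. STAT2, which activates transcription from the response element, had 136 and 141 CPM in shRALY and 20.3 and 24.8 CPM in shControl (log2 2.62; edgeR adjusted p = 9.00e-14). IRF9, which binds that element, was scarce at 4.46 and 3.12 CPM in shRALY and 1.51 and 2.58 CPM in shControl. Its sequence words of 50 bases are all shared with an overlapping gene. Its call (edgeR adjusted p = 0.0333) was lost with DESeq2 (adjusted p = 0.113), with glmTreat, and without shControl replicate 1 or shRALY replicate 1.

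**Figure D3:**
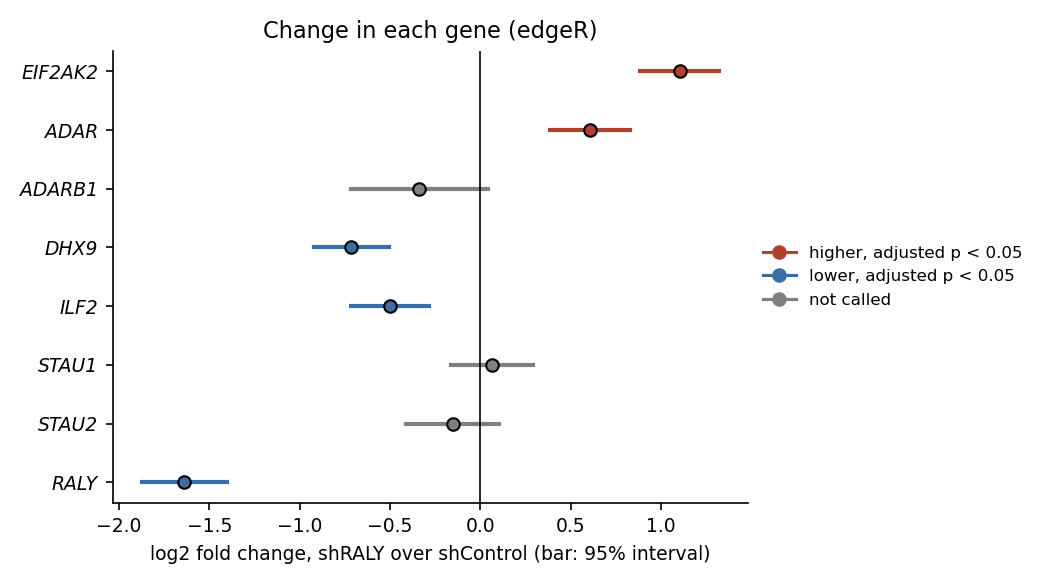
Log2 fold change of shRALY over shControl for the 7 genes and RALY, with 95% intervals from the edgeR fit. EIF2AK2 and ADAR lie above 0, DHX9, ILF2 and RALY below 0, and the intervals of ADARB1, STAU1 and STAU2 include 0.

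DHX9 fell furthest of the 7. It lies on the plus strand of chromosome 1 (182839369 to 182887751; ENSG00000135829) and had raw counts of 4410 and 3810 in shRALY, against 7141 and 6414 in shControl. Its level was 240 and 233 CPM in shRALY and 399 and 377 CPM in shControl, or 236 ± 4.92 CPM against 388 ± 15.7 CPM. Both shRALY values lay well below both shControl values. DHX9 was 1.64-fold lower (log2 -0.71, SE 0.10, 95% interval -0.92 to -0.50; edgeR adjusted p = 5.14e-06), and 50.05% of all genes called lower fell by more. Per kilobase of exon, EIF2AK2 stood at 0.62 and 0.69 times DHX9 in shRALY, against 0.18 and 0.19 times in shControl.

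ILF2, on the minus strand of chromosome 1 (153661788 to 153671048; ENSG00000143621), had raw counts of 3046 and 2711 in shRALY and 4374 and 3815 in shControl. That came to 166 and 166 CPM in shRALY, against 244 and 224 CPM in shControl. The shRALY libraries were nearly equal and the groups did not overlap. ILF2 fell by 0.50 on the log2 scale (SE 0.10, 95% interval -0.71 to -0.28; edgeR adjusted p = 0.000492), and 72.0% of genes called lower fell by more. At 72.7 CPM per kilobase in shRALY and 103 CPM per kilobase in shControl it was the most abundant of the 7 per length.

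The start regions of the 2 genes that fell are shown because both hold the CCAAT box, bound by the NF-Y factor, in capitals here on either strand.
ILF2, chr1:153670944-153671243, minus strand: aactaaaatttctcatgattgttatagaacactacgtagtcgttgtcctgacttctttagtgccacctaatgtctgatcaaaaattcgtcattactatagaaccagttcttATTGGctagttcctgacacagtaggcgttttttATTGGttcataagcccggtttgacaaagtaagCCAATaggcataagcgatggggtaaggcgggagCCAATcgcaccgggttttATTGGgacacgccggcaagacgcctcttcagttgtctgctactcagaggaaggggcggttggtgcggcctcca
DHX9, chr1:182839097-182839396, plus strand: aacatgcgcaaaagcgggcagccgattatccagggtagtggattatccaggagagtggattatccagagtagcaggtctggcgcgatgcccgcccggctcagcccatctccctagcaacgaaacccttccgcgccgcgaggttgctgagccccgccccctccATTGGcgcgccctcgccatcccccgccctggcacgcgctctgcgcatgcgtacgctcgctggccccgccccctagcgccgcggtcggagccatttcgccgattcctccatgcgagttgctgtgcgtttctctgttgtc
The ILF2 window held 5 CCAAT matches, at positions -139, -106, -74, -41 and -23, and 126 of 35116 windows (0.359%) held 5 or more. The DHX9 window held 1 match, at position -88, and 34.6% of windows held at least 1. EIF2AK2 and ADAR windows, which belong to genes that rose, held CCAAT too, so the letters do not separate the genes by direction. None of the windows held the gamma-interferon activated sequence, searched as TTCNNNGAA, found in 7.66% of windows.

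ILF2 pairs with other proteins through its DZF domain, which STRBP, ZFR and ZFR2 also hold. STRBP, known from spermatid RNA binding, had 23.9 and 23.2 CPM in shRALY and 48.5 and 43.7 CPM in shControl (log2 -0.97; edgeR adjusted p = 2.16e-06). ZFR, a zinc finger protein that binds RNA, had 193 and 198 CPM in shRALY and 195 and 170 CPM in shControl and did not pass (edgeR adjusted p = 0.484). ZFR2 had 5 counts over the shControl libraries and was not tested.

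Helicases of the DEAH group, to which DHX9 belongs, were called lower in part. Of 17 listed, 15 were tested, 9 were lower and 0 higher, beside 20.4% lower and 20.6% higher among all tested genes, with a median log2 fold change of -0.31, less than the change of DHX9 itself. DESeq2 called 7 of the 15 lower and also 0 higher, and 0 were higher in edgeR at an unadjusted p under 0.05. All 15 had at least 10 CPM in 2 libraries, where calls were more frequent. A fit on the 10017 genes at that level called 2637 lower and 2712 higher. DHX37, of ribosome assembly, had 78.7 and 83.7 CPM in shRALY and 109 and 132 CPM in shControl (log2 -0.57; edgeR adjusted p = 0.00041). DHX30, of mitochondrial RNA, had 97.1 and 100 CPM in shRALY and 130 and 136 CPM in shControl. The splicing helicase DHX15 had 160 and 150 CPM in shRALY and 226 and 194 CPM in shControl; both were called lower (edgeR adjusted p = 0.00257 for DHX30 and 0.00265 for DHX15), and neither without either shRALY library (0.0557 to 0.139). Of the 15, 1 was called lower by glmTreat against a 1.2-fold change, 1 without shRALY replicate 1 and 2 without shRALY replicate 2.

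STAU1 and STAU2 did not pass the test. STAU1, on chromosome 20 (49113339 to 49188367, minus strand; ENSG00000124214), had 167 and 171 CPM in shRALY and 175 and 148 CPM in shControl. The shRALY values fell between the shControl values. The log2 fold change was 0.07 (SE 0.11, 95% interval -0.16 to 0.29; edgeR adjusted p = 0.674), which leaves room for a change between 0.89-fold and 1.23-fold. STAU2, the paralog best known from neurons, had 47.2 and 40.2 CPM in shRALY and 50.8 and 46.4 CPM in shControl, with overlapping groups (log2 -0.15, SE 0.12, 95% interval -0.41 to 0.10; edgeR adjusted p = 0.351). Per kilobase of exon, STAU1 exceeded STAU2 7.78-fold and 9.37-fold in shRALY and 7.57-fold and 7.03-fold in shControl.

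Staufen proteins recruit UPF1 to decay their target mRNAs. Of 11 decay factors listed with UPF1, 6 were lower, 1 higher and 4 not called, beside 20.4% lower and 20.6% higher among all tested genes, with a median log2 fold change of -0.31. SMG5, which acts on phosphorylated UPF1, had 84.5 and 92.3 CPM in shRALY and 119 and 145 CPM in shControl (log2 -0.58; edgeR adjusted p = 0.000346). PNRC2, which links UPF1 to decapping, had 70.2 and 67.9 CPM in shRALY and 43.8 and 32.9 CPM in shControl (log2 0.85; edgeR adjusted p = 1.56e-05). UPF1 was lower at log2 -0.36 (edgeR adjusted p = 0.0191) and did not pass without shControl replicate 2 (edgeR adjusted p = 0.0876) and without shRALY replicate 1 (0.397) or 2 (0.0677). All 11 had at least 10 CPM in 2 libraries, the level at which calls were more frequent, as given for the helicases. DESeq2 and the fit with no filter on low counts each called 4 of the 11 lower, and glmTreat called 3. Without shRALY replicate 1, 2 of the 11 were called lower, and without shRALY replicate 2, 3 were.

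**Figure D4:**
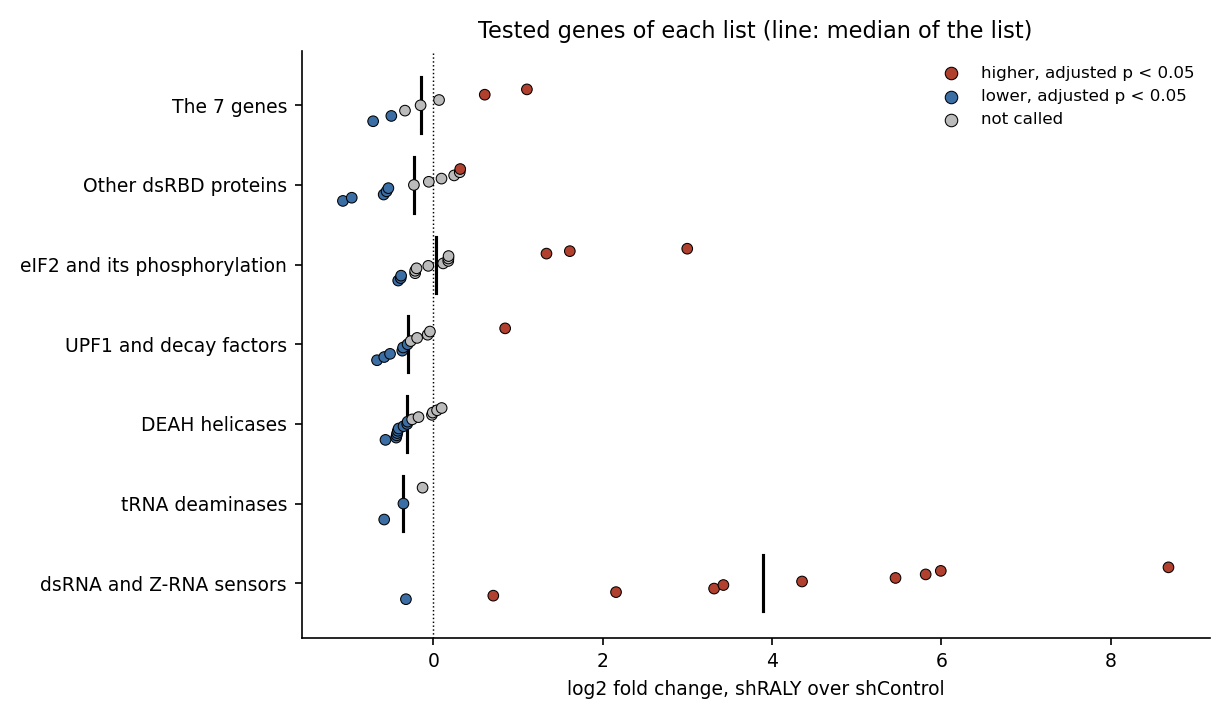
Log2 fold change of shRALY over shControl for each tested gene of the 7 and of 6 gene lists, 1 point per gene, coloured by call, with the median of each list as a vertical line. The sensors lie to the right but for 1, and most DEAH helicases, decay factors and other double-stranded RNA binding domain (dsRBD) proteins lie at or left of 0.

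Of 14 other listed proteins with a double-stranded RNA binding domain, 11 were tested. Of these, 5 were lower, 1 higher and 5 not called (median log2 -0.23), beside 20.4% lower and 20.6% higher among all tested genes. These 11 also had at least 10 CPM in 2 libraries, where calls were more frequent. DROSHA, the nuclear microRNA processing enzyme, had 53.7 and 55.3 CPM in shRALY and 82.0 and 81.9 CPM in shControl (log2 -0.59; edgeR adjusted p = 0.000179), and STRBP is given above. DGCR8, the partner of DROSHA, and SON, a splicing cofactor, were also lower, at log2 -0.55 and -0.53. DICER1 was higher at log2 0.32 (edgeR adjusted p = 0.0249). This call was lost with library size alone (edgeR adjusted p = 0.0601), with glmTreat, and without shRALY replicate 1 or 2. These last 3 genes were named after their values were seen. PRKRA (PACT), an activator of PKR, had 44.0 and 45.1 CPM in shRALY and 42.3 and 41.04 CPM in shControl (edgeR adjusted p = 0.566). TARBP2, which inhibits PKR and assists DICER1, had 46.4 and 38.6 CPM in shRALY and 36.1 and 35.8 CPM in shControl (edgeR adjusted p = 0.135). Without shControl replicate 1, 2 of the 11 were called higher. Among the 3 adenosine deaminases of tRNA, which lack such a domain, ADAT1 was lower at log2 -0.36 and ADAT3 at log2 -0.58 (edgeR adjusted p = 0.0309 and 0.0246). ADAT2 had 7.94 and 7.70 CPM in shRALY and 10.1 and 6.99 CPM in shControl and did not pass. DESeq2 called neither ADAT1 nor ADAT3 (adjusted p = 0.0715 and 0.0771), and neither was called by glmTreat. ADAT1 was also lost without shControl replicate 2, shRALY replicate 1 or shRALY replicate 2. ADAT3 was lost without shControl replicate 1 (edgeR adjusted p = 0.0815) or shRALY replicate 2 (0.297). ADAT3 also shares 35.4% of its exonic bases with SCAMP4, an overlapping gene on its strand, so its reads are uncertain.

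For 6 of the 7, the genes with the most similar pattern over the 4 libraries were found by the Euclidean distance between log2 CPM values set relative to the shControl mean, among 10692 other protein-coding genes with at least 5 CPM. LGMN and TRIB1 lay closest to EIF2AK2, at distances of 0.04 and 0.05. MAPK8IP2 and RNF215 lay closest to ADAR, both at 0.02. MTFMT and USP12 were nearest to DHX9 (both 0.03), and EIF4B and HAUS3 to ILF2 (0.03 and 0.03). STAU1 lay nearest to TRPM7 and RB1CC1, and STAU2 to NIP7 and LCMT1. With 4 libraries in 2 groups, these distances mostly reflect a like size of change.

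The 14 other settings tried left the side of the threshold of all 7 genes as it was. The log2 fold change of EIF2AK2 ranged from 1.05 to 1.17 and its adjusted p was at most 1.73e-07. That of ADAR ranged from 0.49 to 0.74, lowest without shControl replicate 1 and highest without shControl replicate 2, with an adjusted p of at most 0.0153. DHX9 ranged from -0.77 to -0.68 (adjusted p at most 0.00258) and ILF2 from -0.55 to -0.44 (adjusted p at most 0.0464). STAU1 ranged from -0.03 to 0.18, STAU2 from -0.27 to -0.03 and ADARB1 from -0.41 to -0.25, with no call in any setting.

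**Figure D5:**
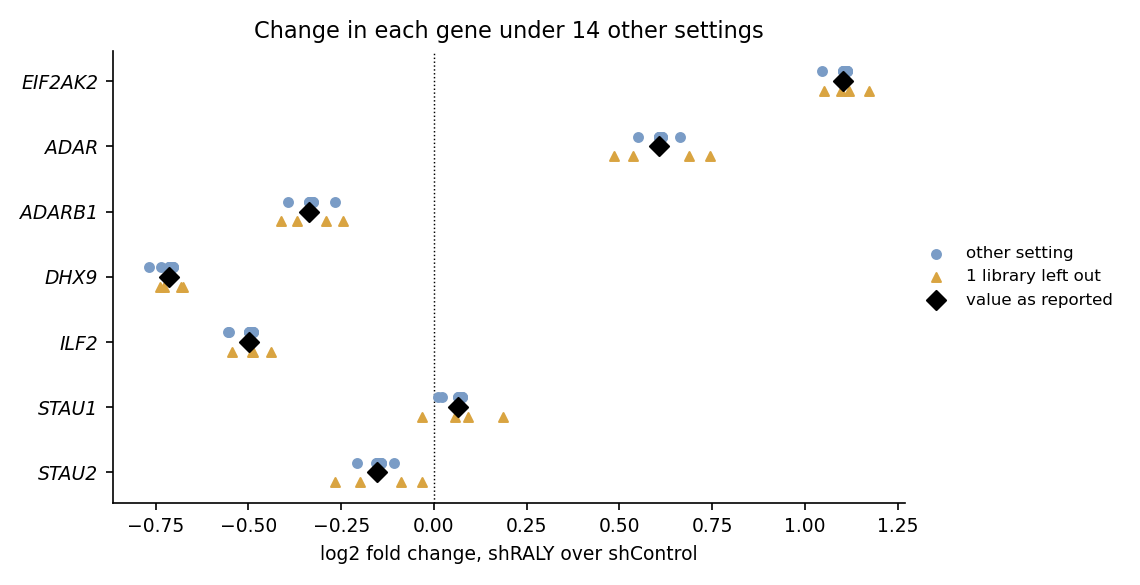
Log2 fold change of shRALY over shControl for each of the 7 genes as reported (diamonds), with 1 library left out (triangles) and under the other settings (circles). EIF2AK2, ADAR, DHX9 and ILF2 keep their side of 0 throughout, and STAU1 crosses 0 when 1 library is left out.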

How the data were processed

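Polyadenylated RNA of 4 libraries was sequenced, 2 per group, per the labels' protocols. The authors deposited 1 table of raw read counts per library. The submitters' processing notes name HISAT2 2.0.5, featureCounts 1.5.0-p3, DESeq2 1.20.0 and hg38, without saying what each was used for; annotation release, strand setting and handling of multi-mapped reads were not given in the sources used here. All 58735 gene identifiers matched GENCODE 29, whose coordinates on GRCh38 are used.

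Genes were kept by edgeR's filterByExpr (minimum count 10, minimum total 15), which left 15912, and 42823 were not tested. Libraries were scaled by TMM in edgeR 4.0.16 under R 4.3.3. shRALY was set against shControl by the robust quasi-likelihood F-test, and p-values were Benjamini-Hochberg adjusted over all tested genes at 0.05. A standard error is the size of the log2 fold change over the square root of F. Levels per length are CPM per kilobase of all annotated exons of a gene, merged. That length need not be the length of the transcripts expressed, so levels per length compared between genes are approximate. Alternatives used DESeq2 1.42.0 and other scalings, filters and library subsets. The fit was tested on simulated data with the same dispersion for all genes and both groups. That test does not cover groups or genes that differ in spread. Starts of genes come from RefSeq, GRCh38.p14.

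The named genes are the 7 and RALY; up to 3 genes with the smallest adjusted p from each list, and every gene of lists of at most 4; and PRKRA, TARBP2, EIF2S1, PPP1R15A, DNAJC3, UPF1 and ZBP1. EIF2AK1, EIF2AK4, PPP1R15B, MAVS, DGCR8, SON and DICER1 were added after their values were seen. Some genes that this rule names are not reported here. The 7 genes, by symbol, and the lists were chosen with earlier results of these data known.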

Additional observations from a re-analysis of the deposited data

How the results depend on the processing

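All 14 alternatives left EIF2AK2 and ADAR higher, DHX9 and ILF2 lower and the other 3 genes uncalled, and RALY lower (log2 -1.70 to -1.57). Over all genes, 3274 were called higher and 3245 lower; leaving out 1 library gave 2040 to 3559 higher and 1897 to 3499 lower, the fewest without a shRALY library, where the lone shRALY library is assumed to vary like the shControl ones. The spread within a group, as a mean chi-square of counts per gene, was 11.58 in shControl and 4.85 in shRALY. The fit uses the same dispersion of a gene for both groups. With library size alone, 2894 were higher and 3706 lower, and the median gene moved to log2 -0.07. The labels number the libraries, but same-numbered ones are not said to share a culture or day. Their deviations from the group means correlated at 0.204 over 11225 genes, with only 2 pairs. With a replicate block, 3639 genes were higher and 3619 lower, and among the 7 genes still 2 and 2. Among values of other named genes and of lists, 40 lost and 1 gained a call over the alternatives. Of the list counts, 27 moved by over 1.5 times, or to or from 0. The other 629 values kept their side of the threshold or, for list counts, stayed within 1.5 times. ADARB1, at 152 to 216 counts per library, has the widest interval of the 7.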
